A study of Mus musculus with 48 samples.

Results

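The transcripts described here are 8 genes of epithelial and mesothelial cells, measured in F4/80-positive cells sorted from the mouse peritoneum. They are the keratins Krt7, Krt8, Krt18 and Krt19, the mesothelial surface proteins mesothelin (Msln) and uroplakin 3b (Upk3b), the transcription factor Wt1 and the adhesion molecule Epcam. The genes were chosen by name, with earlier results of these data known. All 8 were matched by symbol to 1 line each of a table of 51789 gene IDs. The series holds 48 libraries of mouse macrophages in 16 groups of 3, each group treated with the compound AP-3-84 or with its solvent, and measured by sequencing of transcript 3′ ends. The main comparison here is between 2 peritoneal populations, 6 libraries each. It addresses how much RNA of these 8 genes the sorted cells carried, and whether that amount was stable under AP-3-84.

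Ascites cells came from peritoneal washes of mice of strain C57BL/6, with the genotype given as B6(Cg)-Tyrc-2J/J, 45 days after injection of ID8 cells. ID8 is a mouse line derived from ovarian surface epithelium, and it grows in the abdomen as a model of ovarian cancer. Thioglycollate cells came from wild-type C57BL/6 mice without tumours, 4 days after an intraperitoneal injection of 1 ml of 3% thioglycollate, which irritates the peritoneum and recruits macrophages. Both populations were sorted for F4/80 with magnetic beads, then kept for 4 hours with 10 uM AP-3-84 or with DMSO alone (vehicle). The labelled genotype, the tumour or irritant and the time of harvest all changed together between the populations, so their effects cannot be told apart. The labels do not say whether the 3 libraries of a group came from separate animals, so the p-values measure the spread between these libraries. The other 36 libraries are from bone marrow-derived macrophages, with the titles naming wild-type and KO cells (p53 knockout, by the series' design text) in M0, M1 or M2 culture, while the genotype field calls all of them wild-type. They were used only as a reference for levels.

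Keratins are intermediate filament proteins that assemble as pairs of a type II chain (here Krt7 and Krt8) and a type I chain (Krt18 and Krt19), and this set is the one found in simple epithelia and in mesothelium. Mesothelial cells, which line the peritoneal cavity, also carry Msln and Upk3b on their surface and express Wt1. Ovarian surface epithelium is a related lining and shares several of these genes, so a high level of them does not by itself tell tumour cells from mesothelium. None of the 8 is used as a marker of macrophages.

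Promoters are shown because the 8 genes were high and low in the same libraries. The keratins on chromosome 15, Upk3b and Epcam had a RefSeq promoter window, and Krt19, Msln and Wt1 had none. RefSeq promoter windows (GRCm38.p6, 250 bases before to 50 after the RefSeq start) matched 5 of the 8 genes. The 250 bases before that start are printed 5′ to 3′ on the gene's strand. Capitals mark matches on either strand to 6 motifs searched for, which are GGGCGG (the GC box of Sp factors), TGANTCA (AP-1), GGAATG (TEAD), AACCGGTT (Grainyhead-like factors), GCGTGGGAG (a WT1 site) and TATAAA (the TATA box). The windows lie at chr15:101412153-101412402 (plus strand) for Krt7, chr15:102004343-102004592 (minus strand) for Krt8, chr15:102027966-102028215 (plus strand) for Krt18, chr5:136038246-136038495 (plus strand) for Upk3b and chr17:87635729-87635978 (plus strand) for Epcam.
Krt7: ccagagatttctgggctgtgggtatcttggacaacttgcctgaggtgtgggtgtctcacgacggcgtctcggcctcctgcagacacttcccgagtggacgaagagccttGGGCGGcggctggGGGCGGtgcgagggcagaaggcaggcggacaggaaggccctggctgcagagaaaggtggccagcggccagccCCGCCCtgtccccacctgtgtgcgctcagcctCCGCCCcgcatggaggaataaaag
Krt8: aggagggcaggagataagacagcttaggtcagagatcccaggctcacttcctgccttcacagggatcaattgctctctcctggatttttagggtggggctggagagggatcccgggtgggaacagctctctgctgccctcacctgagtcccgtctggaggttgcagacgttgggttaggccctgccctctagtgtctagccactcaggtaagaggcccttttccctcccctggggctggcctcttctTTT
Krt18: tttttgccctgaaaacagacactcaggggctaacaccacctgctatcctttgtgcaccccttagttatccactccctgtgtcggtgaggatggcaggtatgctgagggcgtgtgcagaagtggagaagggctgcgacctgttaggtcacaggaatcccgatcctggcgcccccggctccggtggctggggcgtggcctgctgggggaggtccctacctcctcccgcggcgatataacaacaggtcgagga
Upk3b: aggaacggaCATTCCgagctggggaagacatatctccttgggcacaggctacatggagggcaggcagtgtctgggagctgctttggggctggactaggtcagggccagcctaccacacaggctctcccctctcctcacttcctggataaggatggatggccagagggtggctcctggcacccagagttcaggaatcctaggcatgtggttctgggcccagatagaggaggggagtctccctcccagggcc
Epcam: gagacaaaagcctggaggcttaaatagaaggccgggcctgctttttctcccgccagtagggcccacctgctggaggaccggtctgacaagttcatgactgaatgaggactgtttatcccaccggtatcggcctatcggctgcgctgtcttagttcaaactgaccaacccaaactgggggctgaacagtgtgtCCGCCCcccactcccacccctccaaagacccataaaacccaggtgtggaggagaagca
No motif was shared by all 5 windows. GGGCGG matched 4 times in the Krt7 window and 1 time in that of Epcam, and 35.7% of 32851 windows of the same length held it. GGAATG matched 1 time, in Upk3b (14.7% of windows held it). TATAAA matched 2 times in Krt8, by overlapping matches on opposite strands that run past the printed end (13.6% of windows). TGANTCA (7.81% of windows), AACCGGTT (0.146%) and GCGTGGGAG (0.472%) matched in none of the 5, and the Krt18 window held none of the 6 motifs. A match is a description of the letters only.

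In the GENCODE M21 annotation of GRCm38 (the build behind the counts is not given in the sources used here), Krt7 lies at chr15:101411043-101430313 on the plus strand, Krt8 at chr15:101996698-102004482 on the minus strand and Krt18 at chr15:102028180-102032027 on the plus strand. Krt8 and Krt18 are neighbours with 23698 bp between them. The printed RefSeq window of Krt7 lies wholly inside its GENCODE bounds, and those of Krt8 and Krt18 reach into theirs. For these keratins the RefSeq start thus differs from the outer GENCODE start, and the printed bases are not all upstream of the GENCODE gene. Krt19 lies apart at chr11:100140810-100148665 (minus strand). Msln lies at chr17:25748613-25754378 (minus strand), Upk3b at chr5:136038496-136046487 (plus strand), Wt1 at chr2:105126529-105173616 (plus strand) and Epcam at chr17:87635979-87651129 (plus strand). Opposite-strand genes overlap Krt7 (Gm671) and Krt8 (Gm36026), neither was found in the count table by its ID, and the strand setting of the counting is not given in the sources used here, so reads from the partners cannot be told apart. Of the 471 stretches of 30 bases in the last 500 bases of Krt18, 10.0% also occur in the gene Gm5200, so a part of the reads of Krt18 could be shared. Krt7 shares such stretches with 475 other genes, with none over 2.3% of its own, so a part of its few reads could also be shared.

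The peritoneal libraries held from 15532373 to 19417581 counts each. Levels are given as read counts or as CPM (counts per 1000000 counts of the library, scaled by the TMM method of edgeR), and ± is the SD over 3 libraries. Differences between groups are log2 fold changes with their standard error (SE) from edgeR's quasi-likelihood test, and a gene counts as called where its p, adjusted by Benjamini-Hochberg over 16955 genes, is under 0.05. Among 12 macrophage markers on a list, Lyz2 was the most abundant in both populations. It was at 25705 ± 1000 CPM in ascites vehicle and 30804 ± 213 CPM in thioglycollate vehicle cells. Adgre1, which encodes the sorted antigen F4/80, was at 239 ± 4.56 and 244 ± 13.5 CPM (edgeR adjusted p = 0.780). The ascites AP-3-84 replicate 1 library stood apart from its 2 fellows, with a mean chi-square per gene of 22.5 and 25.9 against 5.29 to 12.1 for the other 10 pairs of replicates, and values without it are given below.

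All 8 genes, chosen with earlier results of these data known, were called higher in ascites than in thioglycollate cells under vehicle. That their groups of 3 libraries did not overlap is a description only, since the share of all genes without overlap was not counted. Of all genes tested, 33.7% were called in this comparison, 20.3% as higher. The 8 genes summed to 229 ± 19.3 CPM in ascites vehicle libraries (211 to 249) and 3.93 ± 1.00 CPM in thioglycollate vehicle libraries (2.98 to 4.98), a ratio of 58.3. In ascites that sum was a small part of the RNA, from 0.0221% to 0.0260% of all counts in a library. This share covers the 8 transcripts only, and the whole of the epithelial or mesothelial RNA was not estimated. The median log2 fold change of the 8 genes was 6.69, or 6.07 with the 2 genes that had no thioglycollate counts set at their lower bound, against 0.05 over all genes. All 8 passed the filter on low counts in the ascites libraries and 2, Krt8 and Wt1, would have passed it in the thioglycollate libraries alone, so the other 6 were tested only because of their ascites level. In bulk RNA, fewer cells of a type and less RNA per cell cannot be told apart.

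**Figure D1:**
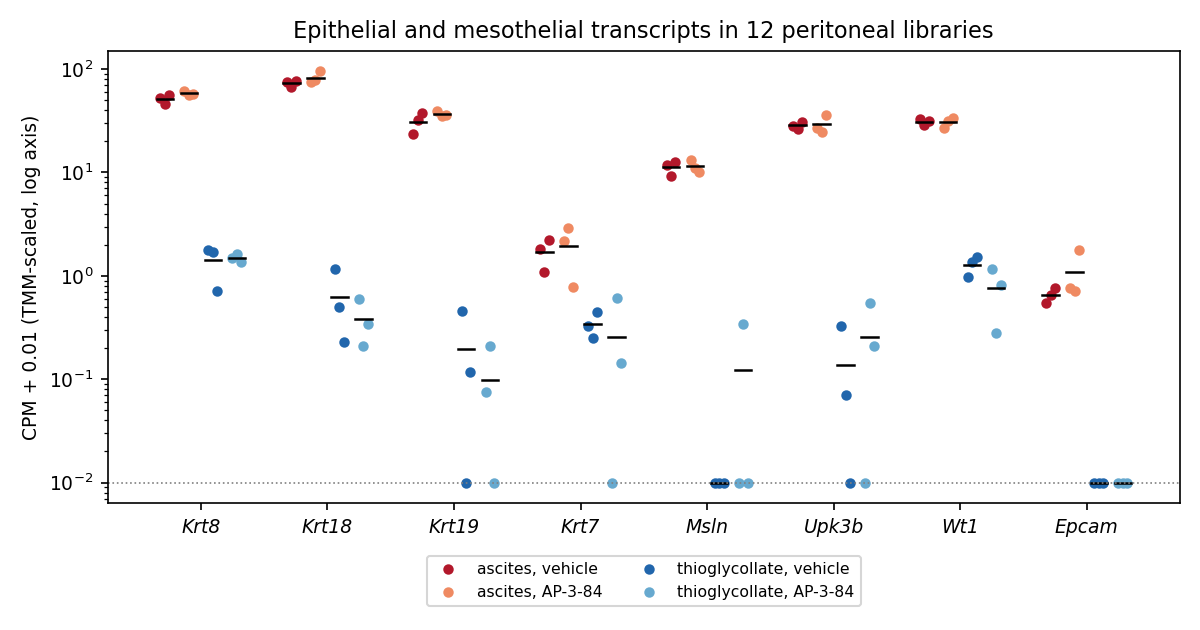
Level of each of the 8 genes in the 12 peritoneal libraries, in CPM plus 0.01 on a log axis. Each point is 1 library, the black line is the mean of 3, and points on the dotted line had 0 counts; for every gene the 6 ascites points lie above the 6 thioglycollate points.

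Among the type II chains, Krt8 had 873, 927 and 1047 counts in the ascites vehicle libraries and 28, 28 and 13 in the thioglycollate vehicle libraries. Every ascites library was far above every thioglycollate library, and thioglycollate replicate 3 had less than the other 2 of its group. The means were 51.6 ± 5.59 and 1.40 ± 0.601 CPM, and the log2 fold change was 5.22 (edgeR adjusted p = 1.24e-12, SE 0.212). Krt7, the other type II chain, was counted sparsely, with 30, 22 and 41 reads in ascites and 5, 4 and 8 in thioglycollate cells. Its groups did not overlap, but the lowest ascites value was within a few fold of the highest thioglycollate value. The difference was 1.70 ± 0.576 against 0.332 ± 0.0962 CPM, a log2 fold change of 2.32 (edgeR adjusted p = 0.0226, SE 0.756). The Krt7 call was lost without ascites vehicle replicate 3 (edgeR adjusted p = 0.0802), without thioglycollate vehicle replicate 1 (0.0666) or without its replicate 2 (0.0829).

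Among the type I chains, Krt18 had 1260, 1364 and 1422 counts in ascites vehicle libraries and 18, 8 and 4 in thioglycollate vehicle libraries. The ascites libraries agreed closely and the thioglycollate ones were spread over few reads. Its mean level was 73.3 ± 5.32 against 0.617 ± 0.480 CPM, with a log2 fold change of 6.92 (edgeR adjusted p = 8.57e-10, SE 0.375). Krt19, a type I keratin without a tail domain, had 395, 646 and 695 counts in ascites and 7, 0 and 2 in thioglycollate cells. Replicate 1 was the lowest of the ascites vehicle libraries, and 1 thioglycollate library had no read. The means were 31.1 ± 7.05 and 0.185 ± 0.233 CPM, and the log2 fold change was 7.39 (edgeR adjusted p = 1.50e-08, SE 0.696). Without thioglycollate vehicle replicate 1, which held 7 of the 9 Krt19 reads and 18 of the 30 Krt18 reads of its group, the value was 8.91 for Krt19 and 7.70 for Krt18.

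Msln, which encodes a precursor protein whose mature form is anchored in the membrane of mesothelial and many tumour cells, had 195, 188 and 233 counts in ascites vehicle libraries. It had 0 counts in the 3 thioglycollate vehicle libraries. Against a floor of 3 counts over that group, Msln was at least 187-fold higher in ascites, at 11.2 ± 1.74 CPM (edgeR adjusted p = 9.27e-08). Upk3b, a member of the uroplakin family that marks mesothelium, had 470, 537 and 570 counts in ascites against 5, 1 and 0 in thioglycollate cells. The 3 ascites values lay within a narrow range and the thioglycollate values were close to 0. Its level was 28.5 ± 2.25 against 0.127 ± 0.170 CPM, with a log2 fold change of 7.82 (edgeR adjusted p = 1.11e-07, SE 0.916). The size of the Upk3b change rested on few thioglycollate reads: it was 9.62 without thioglycollate vehicle replicate 1 and 7.20 without replicate 3.

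Wt1, a zinc finger transcription factor of mesothelium and gonad, had 545, 587 and 576 counts in ascites vehicle libraries and 15, 22 and 28 in thioglycollate vehicle libraries. It was thus detected in every peritoneal library, with ascites values from 28.9 to 32.7 CPM and thioglycollate values from 0.958 to 1.52 CPM. The means were 30.9 ± 1.88 and 1.27 ± 0.286 CPM, a log2 fold change of 4.59 (edgeR adjusted p = 4.64e-11, SE 0.243). Epcam, the adhesion molecule of most epithelia, had 9, 13 and 14 counts in ascites and 0 in each thioglycollate library. It was present in all ascites libraries at a level of 0.646 ± 0.110 CPM, and it was at least 10.9-fold higher than the floor of 3 counts over the thioglycollate group (edgeR adjusted p = 0.00185). With so few reads its size cannot be given more closely.

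The AP-3-84-treated libraries, which are separate libraries, gave the same comparison again. All 8 genes were called higher in ascites AP-3-84 than in thioglycollate AP-3-84 cells, where 36.8% of all genes were called and 22.9% were higher. Their summed level was 252 ± 16.7 CPM (241 to 272) against 3.28 ± 0.467 CPM (2.81 to 3.75), a ratio of 76.9. Krt18 had 1189, 1350 and 1494 counts against 9, 3 and 5, and its log2 fold change was 7.76 (edgeR adjusted p = 6.34e-10, SE 0.474). Krt19 had 618, 606 and 570 counts against 1, 3 and 0, with a log2 fold change of 8.59 (edgeR adjusted p = 1.04e-08, SE 1.01). For both keratins the groups were far apart, and the thioglycollate side rested on a handful of reads. Krt8 had 967, 976 and 896 counts against 23, 24 and 20 (edgeR adjusted p = 1.14e-12 for a log2 fold change of 5.29 with SE 0.214). In Krt7 the ascites counts were 34, 50 and 12 and the thioglycollate counts 0, 9 and 2 (edgeR adjusted p = 0.00663 for a log2 fold change of 2.95 with SE 0.812). The Krt7 groups came close to each other, with ascites replicate 3 at 0.765 CPM and thioglycollate replicate 2 at 0.602 CPM.

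Of the mesothelial genes in the treated libraries, Msln had 212, 191 and 159 counts in ascites and 0, 5 and 0 in thioglycollate cells (edgeR adjusted p = 2.49e-07 for a log2 fold change of 6.61 with SE 0.797). All 5 reads of Msln in thioglycollate cells were in replicate 2, and without that library Msln was at least 117-fold higher against a floor of 3 counts. Upk3b had 429, 427 and 568 counts against 0, 8 and 3 (edgeR adjusted p = 1.73e-07 for a log2 fold change of 6.87 with SE 0.700). Wt1 had 429, 539 and 533 counts against 18, 4 and 12 (edgeR adjusted p = 2.38e-11 for a log2 fold change of 5.35 with SE 0.296). Neither gene had overlapping groups. Without thioglycollate AP-3-84 replicate 2 the log2 fold change was 8.11 for Upk3b, 9.84 for Krt19 and 4.73 for Krt7, and without replicate 1 it was 6.29 for Upk3b. Epcam had 12, 12 and 28 counts against 0 in each library, at least 16.1-fold higher than the floor (edgeR adjusted p = 0.000780). Without ascites AP-3-84 replicate 1, all 8 genes were still called in both comparisons of ascites with thioglycollate. In the treated libraries the log2 fold change was then 2.88 for Krt7 (edgeR adjusted p = 0.00865) and 8.53 for Krt19 (5.20e-08), and under vehicle it was 2.30 for Krt7 (edgeR adjusted p = 0.0162).

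**Figure D2:**
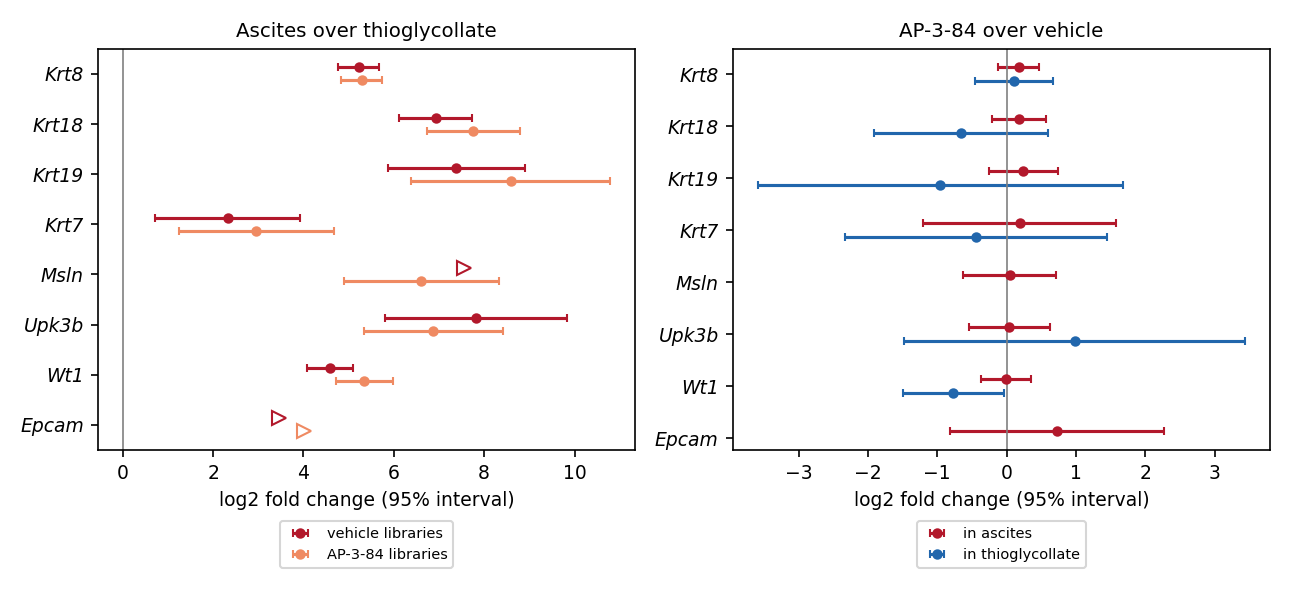
Log2 fold changes of the 8 genes with 95% intervals, on the left for ascites over thioglycollate in vehicle and in AP-3-84 libraries, and on the right for AP-3-84 over vehicle in each population. Open triangles are lower bounds for genes with 0 counts in the thioglycollate group, and genes with a group at 0 are left out on the right; the left intervals lie above 0, and on the right only that of Wt1 in thioglycollate cells does not include 0, with an adjusted p of 0.265 by edgeR.

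AP-3-84 changed none of the 8 genes by this test, in either population. In ascites 1.79% of all genes were called (1.69% higher and 0.1% lower) and in thioglycollate cells 4.32% (2.51% higher and 1.82% lower). In ascites the log2 fold change under AP-3-84 was 0.17 for Krt8 (95% interval -0.12 to 0.47), 0.18 for Krt18 (-0.22 to 0.57) and 0.24 for Krt19 (-0.26 to 0.74). It was 0.04 for Msln (-0.62 to 0.71), 0.04 for Upk3b (-0.55 to 0.63) and -0.01 for Wt1 (-0.37 to 0.35). These intervals leave room for changes of less than 1 on the log2 scale in either direction. The sparse genes were less well bounded, with 0.19 for Krt7 (-1.20 to 1.58) and 0.73 for Epcam (-0.82 to 2.27), whose replicate 3 had 28 reads against 12 in each of the other 2 treated libraries. The edgeR adjusted p-values of the 8 genes in ascites ran from 0.735 to 0.995. The summed level was 1.10 times that of vehicle, with the ranges of the 2 groups overlapping. Without ascites AP-3-84 replicate 1 the 8 values ran from -0.10 for Msln to 0.89 for Epcam, and none was called.

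In thioglycollate cells the reads were too few to bound most changes. Krt8 had a log2 fold change of 0.10 under AP-3-84 (95% interval -0.46 to 0.67), and Wt1 had -0.77 (-1.49 to -0.04, edgeR adjusted p = 0.265). The 3 Wt1 values were 0.958, 1.34 and 1.52 CPM with vehicle and 1.16, 0.268 and 0.803 CPM with AP-3-84, so the groups overlapped. Intervals of Krt18 (-0.66, from -1.92 to 0.60), Krt19 (-0.96, from -3.59 to 1.67), Krt7 (-0.44, from -2.33 to 1.44) and Upk3b (0.98, from -1.48 to 3.44) were wide. Epcam had no reads in any of the 6 libraries. The difference between the responses of the populations was called for 0.118% of all genes (0.0767% with a higher and 0.0413% with a lower response in ascites), and for none of the 8. Its log2 value was 0.07 for Krt8 (-0.57 to 0.71), 0.84 for Krt18 (-0.48 to 2.15) and 0.76 for Wt1 (-0.05 to 1.57, edgeR adjusted p = 0.664). DESeq2 also called none of the 8 under AP-3-84. At an unadjusted p under 0.05 by edgeR there were 0 of the 8 in ascites, 2 in thioglycollate cells (Wt1 and Msln) and 1 for the difference of the responses (Msln, whose thioglycollate reads were all in 1 library).

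Proportions of the keratins within a library were compared as ratios of their reads, and none of the 3 ratios tested passed. In ascites vehicle libraries there were 1.44, 1.47 and 1.36 Krt18 reads for each Krt8 read, and in thioglycollate vehicle libraries 0.643, 0.286 and 0.308. The groups did not overlap, with means of 1.42 ± 0.0590 and 0.412 ± 0.200. With 3 libraries against 3 a two-sided exact permutation test cannot go below p = 0.1, so it cannot pass whatever the values are (p = 0.1, Benjamini-Hochberg adjusted p = 0.15 over the 3 ratios). Krt19 over Krt8 was 0.604 ± 0.133 against 0.135 ± 0.126, also without overlap (exact permutation p = 0.1, adjusted 0.15). Wt1 over Krt8 was 0.603 ± 0.0456 in ascites and 1.16 ± 0.871 in thioglycollate vehicle libraries, where it ran from 0.536 to 2.15 and overlapped the ascites range (exact permutation p = 0.4, adjusted 0.4). Under AP-3-84 the Krt18 over Krt8 ratios were 1.23, 1.38 and 1.67 in ascites and 0.391, 0.125 and 0.250 in thioglycollate cells. The thioglycollate ratios rest on 0 to 28 reads per gene and library, and the part of reads shared with copies of Krt18 was not tested.

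**Figure D3:**
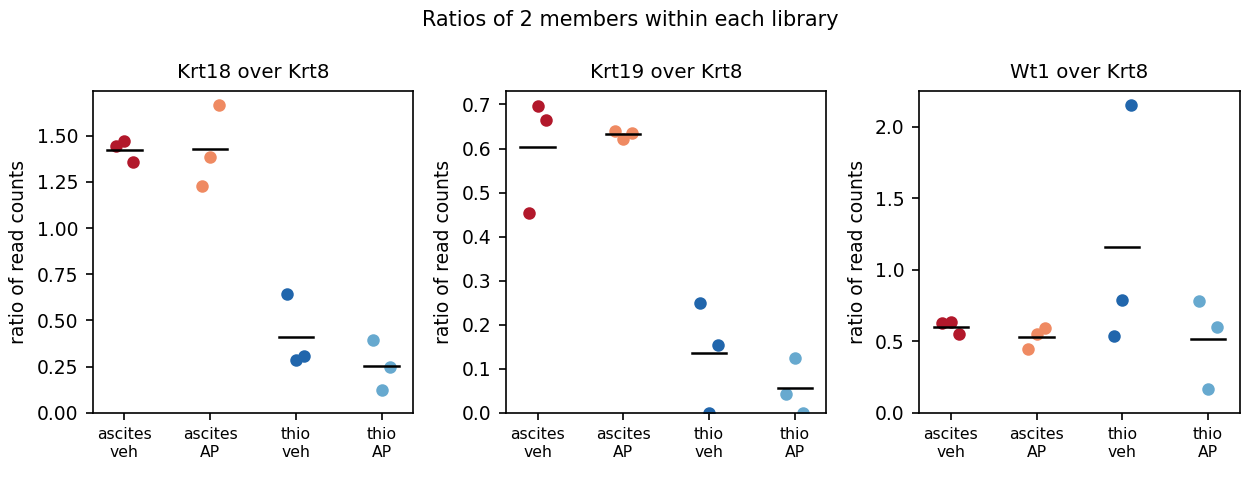
Ratios of read counts of Krt18, Krt19 and Wt1 to Krt8 within each of the 12 peritoneal libraries. Each point is 1 library and the line is the group mean; the first 2 ratios lie higher in all ascites libraries, and the third overlaps between populations.

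Other genes of epithelial cells were taken by name from 2 lists, also drawn up with earlier results of these data known. Of 28 epithelial keratins, desmosome and junction genes, 14 passed the filter, 8 were called higher in ascites vehicle than in thioglycollate vehicle cells and 1 lower, with a median log2 fold change of 2.94. Of the 14, 6 would have passed the filter in the thioglycollate libraries alone, and 1 of these 6 was called higher and 1 lower, beside 20.3% higher and 13.4% lower over all genes, so the count of 8 and the median follow in part from the filter. The desmosomal cadherin Dsg2 was at 7.20 ± 0.248 against 0.244 ± 0.177 CPM (edgeR adjusted p = 7.14e-09 for a log2 fold change of 4.87 with SE 0.416). Ppl, which encodes the desmosomal linker periplakin, had 329 against 2 counts over the groups, a ratio of 150 (95% counting interval 41.2 to 1244). Dsp, Perp, Evpl, Cdh3, Cldn15 and Cgn were the other 6 called higher. Cgn, a tight junction gene, had a log2 fold change of 2.01, and the claudin gene Cldn15 had 300 against 1 counts (95% counting interval of the ratio 48.8 to 10846). The tight junction gene Ocln fell, from 2.57 ± 0.129 CPM in thioglycollate to 0.283 ± 0.283 CPM in ascites cells (log2 fold change -3.18, edgeR adjusted p = 0.000512). The epithelial cadherin Cdh1 was at 1.29 ± 0.489 in ascites and 2.17 ± 0.415 CPM in thioglycollate cells (edgeR adjusted p = 0.162). Krt6a, Krt17 and Cldn6 had 0 counts in all 3 ascites vehicle libraries, and Krt5, Krt20, Cldn3 and Cldn4 had from 1 to 3 over the group.

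The list of 22 epithelial surface proteins and regulators gave a mixed picture, with 9 tested, 4 called higher, 2 lower and a median of 0.55. Of the 9, 6 would have passed the filter in the thioglycollate libraries alone, and 1 of these 6 was called higher and 2 lower. Over all genes 20.3% were called higher and 13.4% lower. The count of 4 called higher thus follows in part from the filter. Spint1, a membrane protease inhibitor, was at 8.10 ± 0.423 against 0.609 ± 0.296 CPM (edgeR adjusted p = 2.13e-07 for a log2 fold change of 3.71 with SE 0.367). Itga6 (log2 fold change -0.63) and Cd24a (-0.77), both also expressed by blood cells, were lower by edgeR. Among the regulators, the transcription factor gene Grhl1 was higher in ascites, at 2.02 ± 0.260 against 0.692 ± 0.349 CPM (edgeR adjusted p = 0.0253), and so was the splicing factor gene Esrp2, with 23 against 0 counts (edgeR adjusted p = 0.00578). Their relatives Grhl2 and Esrp1 had 0 and 1 counts in the ascites vehicle libraries, Ovol1 and Ovol2 had 0, and Rab25 had 1.

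Of 13 mesothelial genes outside the 8, 11 were tested, 9 were called higher and 1 lower in ascites vehicle cells, with a median log2 fold change of 4.09. Only 3 of the 11 would have passed the filter in the thioglycollate libraries alone, of which 1 was called higher and 1 lower. Over all genes 20.3% were called higher and 13.4% lower. The count of 9 and the median thus follow in part from the filter. Upk1b, the uroplakin that pairs with Upk3b, had 599 against 3 counts over the groups, a ratio of 182 (95% counting interval 62.0 to 886). Gpm6a, a membrane glycoprotein, was at 23.1 ± 2.12 against 0.211 ± 0.267 CPM (edgeR adjusted p = 1.82e-07 for a log2 fold change of 6.81 with SE 0.715). Pdpn, which some macrophages also express, was lower, at 144 ± 0.760 against 220 ± 4.61 CPM (log2 fold change -0.61). Pdpn made up most of the summed level of the list, which ranged from 207 to 219 CPM in ascites and from 235 to 241 CPM in thioglycollate libraries. Calb2, which encodes the mesothelial protein calretinin, had 0 counts in ascites vehicle cells. Under AP-3-84 none of these 11 genes was called in ascites (1 at an unadjusted p under 0.05 by edgeR, 0 called by DESeq2), and Pdpn rose in thioglycollate cells (log2 fold change 0.41, edgeR adjusted p = 0.00181).

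Of 11 genes of ovary and Müllerian epithelium, 7 were tested and 4 were called higher in ascites. Of the 7, 4 would have passed the filter in the thioglycollate libraries alone, and 1 of these 4 was called higher. Over all genes 20.3% were called higher. The count of 4 called higher thus follows in part from the filter. Amhr2, the receptor for anti-Müllerian hormone, was at 29.4 ± 4.46 against 0.101 ± 0.175 CPM (edgeR adjusted p = 6.44e-10 for a log2 fold change of 8.11 with SE 0.791). Hoxa10 had 72 against 0 counts and was at least 21.9-fold higher, and Emx2 and Esr1 were the other 2 called. The Müllerian transcription factor genes Pax8 and Sox17, and the granulosa cell gene Foxl2, were at or below 0.125 CPM in ascites vehicle cells. The summed level of this list ranged from 38.7 to 45.6 CPM in ascites and from 4.94 to 6.86 CPM in thioglycollate vehicle libraries. Amhr2 made up most of the sum in ascites.

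Markers of other cell types were counted in the same way. Of 16 fibroblast and stroma genes, 13 were tested and 6 were called higher in ascites vehicle cells, beside 20.3% of all genes. The median was 0.91 and the summed level was 239 to 287 CPM against 39.2 to 60.9 CPM. In the AP-3-84 libraries 3 of the 13 were called higher and 1 lower, with a median of 0.16. Over all genes 22.9% were called higher and 13.9% lower there, so the count of 3 was near the share over all genes. Sparc, a matrix protein, made up most of that sum, at 200 ± 15.6 against 15.1 ± 3.18 CPM (log2 fold change 3.73, edgeR adjusted p = 6.04e-12). Pdgfra was at 3.88 ± 0.541 against 0.807 ± 0.229 CPM. No marker of this list was at 0 in all ascites vehicle libraries. Of 10 endothelial genes 5 were tested and 2 were called lower (Vwf and Kdr), beside 13.4% of all genes. Their summed levels were 22.2 to 35.4 CPM in ascites and 47.5 to 54.4 CPM in thioglycollate libraries over the whole list. The part of fibroblast RNA in the levels of the 8 genes was not tested.

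B cell markers summed to 5.03 to 7.87 CPM in ascites and, without overlap, 7.97 to 9.78 CPM in thioglycollate vehicle libraries. The largest part of the B cell sum was Cr2, at 4.23 and 4.26 CPM. T and NK cell markers summed to 3.89 to 7.31 and 4.72 to 5.59 CPM, and neutrophil markers to 62.5 to 94.8 and 107 to 112 CPM. S100a8 (31.6 and 63.7 CPM) and Cxcr2 (46.6 and 46.2 CPM) made up nearly all of the neutrophil sum. Each other gene of the neutrophil list was at or below 0.138 CPM in both vehicle groups. Of the B cell list 3 of 10 were tested and none was called, with 0 at an unadjusted p under 0.05 by edgeR and 0 by DESeq2. The T and NK cell list had 4 of 13 tested and 1 called higher (Cd4, edgeR adjusted p = 0.0474), and the neutrophil list had 2 of 10 tested and 1 called lower (S100a8). In the eosinophil and mast cell list 4 of 12 were tested, with Kit called higher and Siglecf lower. Macrophage genes moved in both directions, with 7 of 12 called higher and 3 lower and a median of 0.64. Beside the counts of these lists, 20.3% of all genes were called higher and 13.4% lower. Fcgr1, the high-affinity receptor for immunoglobulin G, was at 343 ± 7.14 against 33.8 ± 2.04 CPM, and Cd14 rose as well (log2 fold change 1.46, edgeR adjusted p = 5.77e-10). Cd68 (log2 fold change -1.09) and Mertk (-0.37) were lower by edgeR. The summed level of the macrophage list was 32664 to 34642 CPM in ascites and 36389 to 36871 CPM in thioglycollate vehicle libraries. Lyz2 made up most of this sum in both populations and was itself called lower in ascites (log2 fold change -0.26, edgeR adjusted p = 0.0163).

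**Figure D4:**
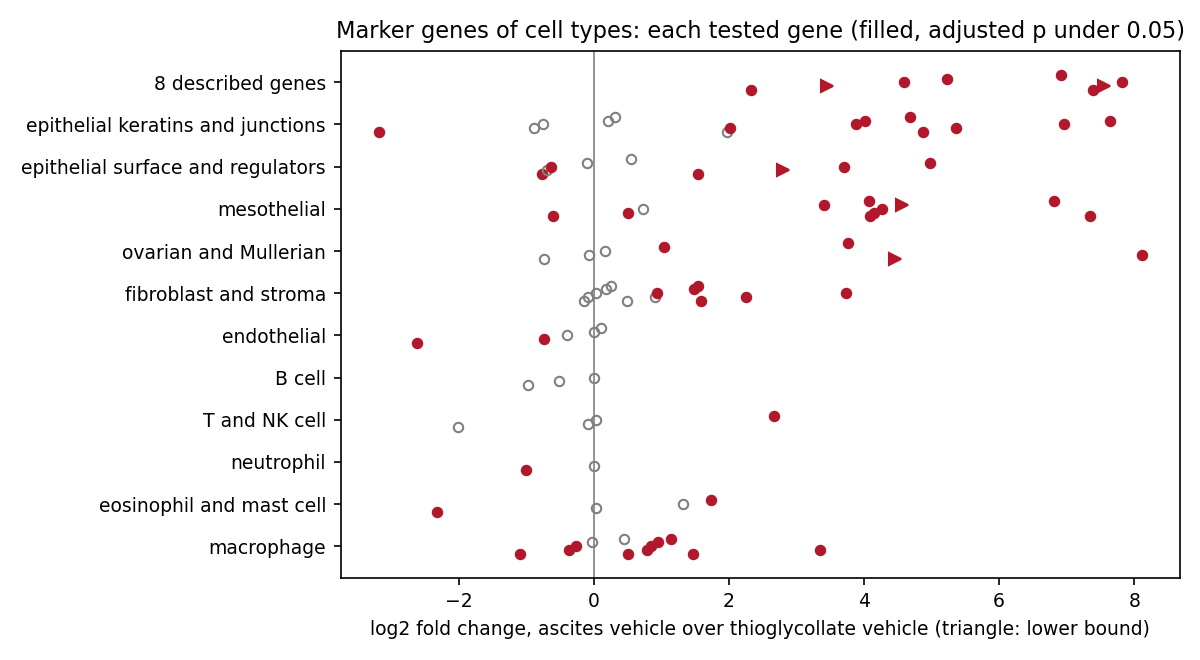
Log2 fold change of every tested marker gene, ascites vehicle over thioglycollate vehicle, for the 8 genes and for 11 lists of cell type markers. Each point is 1 gene, filled where the adjusted p was under 0.05, and triangles are lower bounds for genes with 0 thioglycollate counts; the 8 genes and most tested mesothelial genes lie to the right, and the macrophage genes lie on both sides of 0.

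Genes whose level followed the 8 most closely over the 12 peritoneal libraries were Epn3, Podxl, Dync1i1, Nectin2, Atp1b1 and Clec4a2, with Pearson r of log2 CPM to the mean of the 8 from 0.998 to 0.999. This measure mostly records which genes differ between the populations, since 13.9% of 12585 genes had r of at least 0.9. Podxl, which encodes the surface sialomucin podocalyxin, was at 18.2 ± 0.534 CPM in ascites and 0.0638 ± 0.111 CPM in thioglycollate vehicle cells. Clec4a2, a C-type lectin receptor of myeloid cells, was at 199 ± 2.68 and 46.5 ± 3.55 CPM. Within the 6 ascites libraries alone, where 0.596% of genes had r of at least 0.9, other genes led, namely Stard13, Mon1a, Hdac4, Rnf113a2, Tmem98 and Narfl, with r from 0.979 to 0.986. Of these 6, Tmem98 was the one far apart between the populations, at 10.6 ± 1.59 against 0.121 ± 0.128 CPM. These correlations are descriptions over libraries that share their depth range and their 2 sources. Whether the r values over the 6 ascites libraries exceed those that chance gives among 12585 genes was not tested.

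In bone marrow-derived macrophages, scaled separately and with 3081707 to 4645148 counts per library, the 8 genes were nearly absent. Krt18 and Wt1 had 0 counts in all 36 libraries, and Msln had 1, Krt7 2, Krt8 2, Epcam 5 and Krt19 15 counts over all 36. Upk3b was the exception, with 97 counts over the 36 libraries, of which 71 were in the 4 M1 groups. Its mean level was 0.945 ± 0.824 CPM in wild-type M1 vehicle, 1.77 ± 0.879 CPM in wild-type M1 AP-3-84, 2.34 ± 1.48 CPM in KO M1 vehicle and 1.25 ± 0.867 CPM in KO M1 AP-3-84 cells. In KO M0 AP-3-84 cells 18 of 20 Upk3b reads were in replicate 2. All of these levels were below those of Upk3b in every ascites library, the lowest of which was 24.8 CPM, though the 2 sets of libraries were scaled apart.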

How the data were processed

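RNA of 48 mouse macrophage libraries was measured with the QuantSeq FWD 3′ kit from 100 ng of RNA each, in single reads of 75 bases, per the labels' protocols. The deposited table holds raw read counts per Ensembl gene ID, all whole numbers. RSEM, Bowtie2 and DESeq2 are named in the submitters' processing notes without roles. If RSEM made the counts, they may be rounded estimates. The build, annotation and strand setting, and whether unique molecular identifiers were used, are points not given in the sources used here.

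Groups came from the titles. The 12 peritoneal libraries were fitted with edgeR 4.0.16 (R 4.3.3): genes were filtered by filterByExpr (16955 kept), scaled by TMM (factors 0.945 to 1.05) and tested by robust quasi-likelihood F-tests, two-sided, with 1 mean per group and p-values adjusted by Benjamini-Hochberg over all genes tested. The biological coefficient of variation was 0.168. Fold changes against a group at 0 counts are lower bounds against 3 counts over that group. Where the lower group had 1 to 3 counts, the ratio has an exact 95% counting interval. The counting intervals and the floors cover counting error only, and reads are not independent molecules where PCR copies were kept. The 95% intervals of log2 fold changes come from the quasi-likelihood fit and also include the spread between libraries. The procedure was also run on simulated data, with changes set only in well-counted genes. That run does not cover genes with a group at or near 0 counts. Alternatives were other scalings, no filter, DESeq2 1.42.0, other sample sets, a fold threshold, a replicate block and leaving out each library. Replicate numbers gave no sign of pairing the libraries, and the main fit used no pairing.

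The 8 genes, the marker lists and the motifs were chosen with earlier results of these data known. Named from each list were up to 2 genes called higher and up to 2 called lower, by smallest p, in ascites vehicle against thioglycollate vehicle, and the most abundant macrophage marker; not every gene this rule names is reported here. Others named, such as those at or near 0 counts, the rest of a list called and the genes called under AP-3-84, were chosen after their values were seen. Gene symbols came from a GENCODE M21 table matched by gene ID.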

Additional observations from a re-analysis of the deposited data

Results flagged for a closer look

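Among vehicle groups of bone marrow-derived macrophages, which enter no test, 2 of the 8 genes had more than 3 counts and a mean level over that of the thioglycollate vehicle libraries (0.185 CPM for Krt19 and 0.127 CPM for Upk3b). Krt19 was at 0.856 ± 0.356 CPM in KO M0 vehicle cells, from 2, 4 and 3 counts. Upk3b was at 0.945 ± 0.824 CPM in wild-type M1 vehicle cells (0, 5 and 6 counts), at 2.34 ± 1.48 CPM in KO M1 vehicle cells (14, 9 and 4 counts) and at 0.331 ± 0.573 CPM in KO M2 vehicle cells, from 4 counts in 1 library. The bone marrow-derived libraries were scaled separately and are less deep, and no test was made between the sets.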

How the results depend on the processing

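The calls of the 8 genes in ascites against thioglycollate kept their direction under every alternative run, and the losses were those of Krt7 under vehicle, in 3 of 19 alternatives, all of which leave out 1 library. Krt7 and Epcam did not pass the filter with all 48 libraries in one fit, and Epcam did not with only the 2 vehicle groups, so these gave no value. The fold changes moved by over 1.5 times when 1 thioglycollate library was left out for Krt18, Krt19 and Upk3b under vehicle and for Krt7, Krt19, Msln and Upk3b under AP-3-84, with the values given beside each. The ratio of the summed levels, 58.3, was 52.0 to 67.2 when 1 of the 6 vehicle libraries was left out and 47.0 without Krt18.

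With all 48 libraries in one fit, the genes called were 3252 for ascites against thioglycollate under vehicle (5716 as reported), 3540 under AP-3-84 (6234), 112 for AP-3-84 in ascites (303), 52 in thioglycollate (733) and 2 for the difference of the responses (20). With calls also required to reach 1 on the log2 scale in either direction they were 2352, 2579, 130, 145 and 10 in that order. Without the filter, 519 were called for AP-3-84 in ascites and 155 for the difference of the responses, and DESeq2 called 51 for the latter. With single libraries left out, the 5 counts ranged from 4970 to 6044, from 5551 to 6566, from 196 (without ascites vehicle replicate 2) to 312, from 427 (without thioglycollate vehicle replicate 3) to 961 and from 7 (without ascites vehicle replicate 2) to 26.

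Same-numbered libraries deviated from their group means with correlations from -0.327 to 0.00645 in ascites and from -0.0522 to 0.0298 in thioglycollate. These few values gave no sign that the replicate numbers pair the libraries, but they cannot settle it. With the replicate block by number, 5423, 5891, 243, 557 and 6 genes were called, and with a replicate block within each population 174, 314 and 5 for the last 3. The block changed no call of the 8 genes.

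Reversals of sign touched only AP-3-84 values that were not called. Scaling by total counts gave -0.0093 for Msln and -0.010 for Upk3b in ascites. With libraries left out, the log2 fold changes in ascites ranged from -0.22 to 0.57 for Krt7, from -0.10 to 0.14 for Msln, from -0.14 to 0.15 for Upk3b and from -0.087 to 0.053 for Wt1. In thioglycollate cells they ranged from -2.22 to 0.14 for Krt7, from -0.24 to 0.32 for Krt8, from -1.13 to 0.11 for Krt18, from -2.21 to 0.56 for Krt19 and from -0.26 to 2.79 for Upk3b. For the difference of the responses they ranged from -0.14 to 0.41 for Krt8, from -0.32 to 2.45 for Krt19, from -4.51 to 0.041 for Msln and from -2.75 to 0.29 for Upk3b. The thioglycollate levels rest on 0 to 28 counts per library, which limits every value above that depends on them. In ascites the AP-3-84 intervals of the sparsely counted Krt7 and Epcam reach past 1 on the log2 scale, so smaller changes of these were not detectable at this depth.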
